A study of Mus musculus with 12 samples.

Results

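Of the 18192 genes that single-gene probe sets represent on the arrays, 8 are described here: Plekha4, Flot2, Lypd6b, Akap6, Togaram1, Eci3, Dmrt3 and Myo1h. They were picked from the vesicle values themselves, either because the difference between Dlx5-null and wild-type otic vesicles was not alike at 2 stages or because wild-type vesicles differed strongly between the stages. Every probe set annotated to one of them was kept, which gave 18 probe sets, and 14 of these passed the filter on dim probe sets. Since the vesicle values chose the genes, those values are given below as a description with no test, and only the transfected cells, which the choice did not use, were tested.

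The otic vesicle is the closed epithelial pouch from which the inner ear develops. Expression was profiled in pools of 4 to 8 mouse vesicles per array, dispase-cleaned and staged by somite number, in 4 groups of 2 arrays: labelled Dlx5-null at embryonic day 10 (E10), wild type at E10, labelled Dlx5-null at E10.5 and wild type at E10.5. Another 4 arrays came from 2B1 cells, a cell line whose origin the labels do not state, transfected either with Dlx5 and GFP (2 arrays) or with the empty GFP vector (2 arrays). All 2B1 cultures grew at 32 °C under gamma-interferon before transfection and then spent 4 days at 37 °C without it. The labels name no allele beyond the null and no strain, vesicles of several embryos may share a pool, and nothing in the labels ties a pool to a litter.

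Dlx5 encodes a homeobox transcription factor of the dorsal otic epithelium, which in mouse is needed for the semicircular canals. Homeobox proteins of its family bind short AT-rich DNA words built around TAAT. The 8 genes form no shared pathway. Plekha4 binds phosphoinositides at the plasma membrane and, in human cells, spares the Wnt signalling protein dishevelled from a ubiquitin ligase. Flot2 is a flotillin, a scaffold of membrane microdomains. Lypd6b is a small Ly6-family protein reported to modulate nicotinic acetylcholine receptors. Akap6 anchors protein kinase A at the nuclear envelope of muscle and nerve cells. Togaram1 is a microtubule-binding protein of the primary cilium whose human gene is mutated in Joubert syndrome. Myo1h is a class I myosin, a motor that links membranes to actin. Eci3 is an isomerase in the oxidation of unsaturated fatty acids, and Dmrt3 is a DM-domain transcription factor that in mouse specifies spinal interneurons.

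The letters before the promoter starts that RefSeq lists are shown first, because the labels set the 8 genes against a homeobox factor. RefSeq (GRCm38.p6) gave 9 promoters for 7 of the genes. Those of 4 genes follow whose lead probe set had labelled-null differences of opposite sign at the stages, without overlap of the groups at either. That of Myo1h is added, the gene whose promoter holds the longer word TAATT. For Plekha4 and Myo1h the first listed promoter is printed. Each line gives the 250 bases before the start that RefSeq's promoter table uses, 5′ to 3′ on the gene's strand, and capitals mark TAAT or its reverse complement ATTA. That start is not always the first base of the gene span given below. The Akap6 window lies inside the gene span, and the Togaram1 window lies partly inside it. The windows are chr7:45526080-45526329 (plus strand) for Plekha4, chr11:78037681-78037930 (plus) for Flot2, chr12:52699133-52699382 (plus) for Akap6, chr12:64965492-64965741 (plus) for Togaram1 and chr5:114289003-114289252 (plus) for Myo1h.
Plekha4: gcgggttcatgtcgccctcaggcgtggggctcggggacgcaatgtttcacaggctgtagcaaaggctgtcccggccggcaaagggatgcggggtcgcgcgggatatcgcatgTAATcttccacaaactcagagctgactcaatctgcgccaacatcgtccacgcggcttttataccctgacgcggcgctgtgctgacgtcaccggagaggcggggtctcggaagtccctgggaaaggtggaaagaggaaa
Flot2: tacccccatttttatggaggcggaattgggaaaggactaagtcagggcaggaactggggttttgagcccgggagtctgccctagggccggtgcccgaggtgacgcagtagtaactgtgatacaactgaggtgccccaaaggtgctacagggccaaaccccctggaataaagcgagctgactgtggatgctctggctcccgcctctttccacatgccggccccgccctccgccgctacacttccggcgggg
Akap6: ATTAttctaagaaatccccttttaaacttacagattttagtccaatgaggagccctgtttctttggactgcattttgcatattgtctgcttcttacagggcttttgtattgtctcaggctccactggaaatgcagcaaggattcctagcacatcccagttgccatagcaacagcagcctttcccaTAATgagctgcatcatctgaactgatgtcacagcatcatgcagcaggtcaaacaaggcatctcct
Togaram1: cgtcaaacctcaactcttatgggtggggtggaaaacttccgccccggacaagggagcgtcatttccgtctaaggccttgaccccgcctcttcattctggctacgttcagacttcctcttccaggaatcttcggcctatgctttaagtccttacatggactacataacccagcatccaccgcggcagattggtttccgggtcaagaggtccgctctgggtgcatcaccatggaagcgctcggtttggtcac
Myo1h: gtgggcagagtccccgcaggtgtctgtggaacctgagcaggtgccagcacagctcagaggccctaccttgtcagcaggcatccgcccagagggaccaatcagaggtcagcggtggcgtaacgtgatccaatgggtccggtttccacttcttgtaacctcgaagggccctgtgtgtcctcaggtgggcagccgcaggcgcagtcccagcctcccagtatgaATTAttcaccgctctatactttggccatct

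The word TAAT, read on both strands, stood in 3 of the 9 promoters, which belong to 3 of the 7 genes. It lay at -138 from the listed start of Plekha4, at -250 and -65 from that of Akap6 and at -30 from that of Myo1h. The Myo1h word is also part of TAATT, read as AATTA on the printed strand, so these matches overlap. Flot2, Togaram1, Eci3 and Dmrt3 had no match in their windows, nor had the second promoters of Plekha4 and Myo1h. Of all 32851 promoters of this length, 54.9% hold TAAT and 25% hold TAATT (reverse complement AATTA). A match of letters is a description and not a binding site.

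A few facts of the arrays bear on every value below. The probe set of Dlx5 itself (1449863_a_at) read 7.27 and 8.02 in the labelled-null E10 arrays against 6.20 and 6.30 in the wild-type E10 arrays, and 7.97 and 7.97 in the labelled-null E10.5 arrays against 6.12 and 6.11 in the wild-type E10.5 arrays. It was thus higher in all labelled-null arrays. The labels do not say how the null was made or whether it still makes Dlx5 RNA, and the cause was not tested. Genotypes are therefore called "labelled-null" throughout. Both E10 replicate 1 arrays had a narrower spread of values (SD 2.33 in the labelled-null and 2.32 in the wild-type array) than the other 6 vesicle arrays (2.38 to 2.47). They also had the low Xist levels, 4.98 in the labelled-null and 5.07 in the wild-type array, where the other 6 vesicle arrays lay at 8.91 to 9.72. Results are therefore also given with only the replicate 2 arrays at E10.

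Of 10 measured markers of otic epithelium, Sox10 (11.13 to 12.32) and Oc90 (10.75 to 13.28) were the brightest in every vesicle array. Others were dimmer, as Gata3 at 5.70 to 7.29 and Hmx3 at 5.98 to 6.70. The mean log2 level of 9 measured markers of red blood cells (of 10 listed) was 7.19 to 7.78 in labelled-null and 7.23 to 7.79 in wild-type arrays at E10, and 9.54 to 9.60 in labelled-null and 8.53 to 8.55 in wild-type arrays at E10.5. That of 12 neuronal markers was 6.69 to 6.92 in labelled-null and 6.31 to 6.61 in wild-type arrays at E10, and 7.51 to 7.69 in labelled-null and 7.31 to 7.35 in wild-type arrays at E10.5. In summed linear units the red cell markers reached 36347 to 39662 in labelled-null and 21318 to 22569 in wild-type E10.5 arrays. The 10 measured otic markers (of 12) averaged 8.10 to 8.91 in labelled-null and 7.98 to 8.90 in wild-type arrays at E10, and 8.89 to 9.08 in labelled-null and 9.21 to 9.22 in wild-type arrays at E10.5. Markers of periotic mesenchyme (13) averaged 5.74 to 6.05 in labelled-null and 5.92 to 6.31 in wild-type arrays at E10, and 6.5 to 6.65 in labelled-null and 6.71 to 6.85 in wild-type arrays at E10.5. Those of endothelium (9) averaged 5.31 to 5.48 in labelled-null and 5.48 to 5.53 in wild-type arrays at E10, and 5.75 to 5.87 in labelled-null and 6.02 in both wild-type arrays at E10.5. At E10.5 the mesenchyme, endothelium and otic means were thus lower in labelled-null arrays without overlap, the direction of Eci3, Lypd6b, Plekha4, Flot2 and Dmrt3 there. The red cell and neuronal means were higher at E10.5, the direction of Akap6 and Togaram1 there. At E10 the neuronal mean was also higher in labelled-null arrays without overlap, while Akap6 and Togaram1 were lower. The endothelium mean was slightly lower at E10, while Plekha4, Flot2 and Lypd6b were higher and Dmrt3 was lower. The red cell, otic and mesenchyme means overlapped at E10. The deposited scale has no 0, so no marker can be called absent. The part of these cell types in the values below was not tested, and in pooled tissue fewer cells of a type and less RNA per cell cannot be told apart.

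All values of the genes are RMA log2 levels, in which a difference of 1 is a doubling, and levels of different probe sets are not compared. The lead probe set of a gene is the one with the highest mean over the 8 vesicle arrays. For each, the labelled-null minus wild-type difference is given at each stage with the standard error (SE) of a limma fit to the 4 vesicle groups, which estimates the spread from 2 arrays a group. Probe sets of 1 gene share the arrays and may share target sequence, so they are not replicates. Because the wild-type E10 arrays enter the E10 difference, the stage difference in wild type and the difference between the 2 genotype differences, a low or high level there moves all of these together.

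In 5 of the 8 lead probe sets, those of Plekha4, Flot2, Lypd6b, Akap6 and Togaram1, both labelled-null arrays lay beyond both wild-type arrays at each stage, and in opposite directions at E10 and E10.5. The same held for 9 of all 18 probe sets, all among the 14 that passed the filter, against 858 of 26218 tested (3.27%). That share cannot be read as a result because the genes were chosen on the vesicle values. The difference of the genotype differences had a size of 1 or more in 8 of the 14 member probe sets that passed the filter and in 0.87% of all probe sets tested, with median sizes of 1.15 and 0.18. It was above 0 for 4 lead probe sets and below 0 for the other 4. Across all 26218 probe sets limma called 0 (0.0%) for this difference at an adjusted p under 0.05, with 541 at an unadjusted p under 0.05 (2.06%). None of the 8 genes was thus called, but this is not read as a test of them, because the vesicle values chose them.

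**Figure D1:**
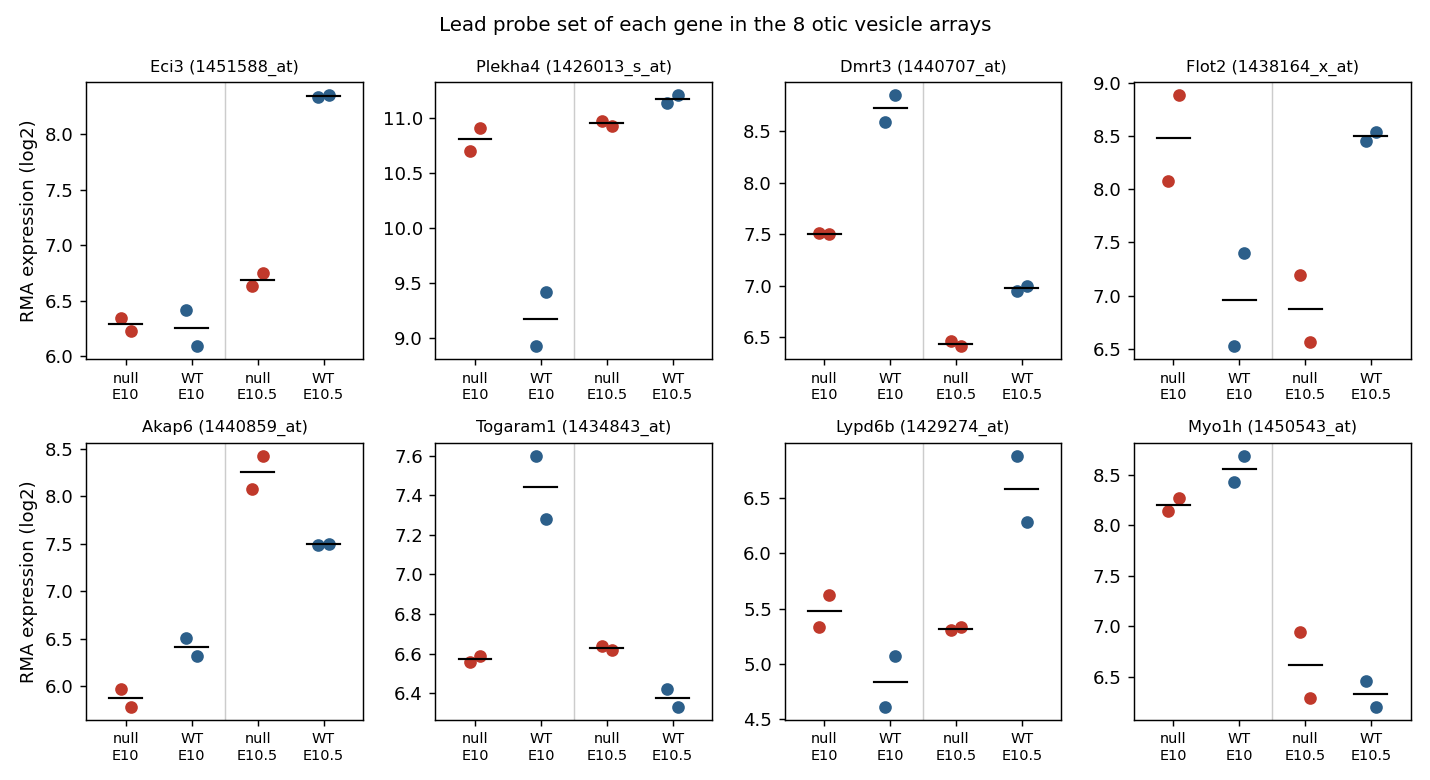
RMA log2 level of the lead probe set of each of the 8 genes in every array, with one panel per gene, labelled-null groups left of their wild-type groups, points for arrays and bars for group means. Plekha4 lies at 8.92 and 9.42 in the wild-type E10 arrays and at 10.70 or above in the other 6 vesicle arrays, and Eci3 lies at 8.33 and 8.35 in the wild-type E10.5 arrays and at 6.75 or below in the others.

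Plekha4 (chr7:45526330-45554229, GRCm38.p6) was the gene whose wild-type E10 level stood apart. Its lead probe set (1426013_s_at) read 10.70 and 10.91 in labelled-null E10 arrays against 8.92 and 9.42 in wild-type E10 arrays. At E10.5 it read 10.97 and 10.93 in labelled-null against 11.14 and 11.21 in wild-type arrays. The wild-type E10 pair was low and the other 3 groups lay between 10.70 and 11.21, with labelled-null above wild type at E10 and slightly below it at E10.5. The labelled-null difference was 1.64 at E10 and -0.23 at E10.5 (SE 0.20 each), and the second minus the first was -1.86 (SE 0.28).

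The other 3 Plekha4 probe sets gave the same order at both stages. Probe set 1451907_a_at read 8.57 and 8.98 in labelled-null against 7.78 and 7.75 in wild-type E10 arrays, and 9.36 and 9.17 against 9.47 and 9.41 at E10.5. Probe set 1425866_a_at read 7.89 and 8.74 in labelled-null against 7.15 and 7.39 in wild-type E10 arrays, and 9.05 and 8.83 against 9.19 and 9.11 at E10.5. The fourth set, 1425867_at, read 6.67 and 6.62 in labelled-null against 6.25 and 5.97 in wild-type E10 arrays, and 6.45 and 6.49 against 6.59 and 6.85 at E10.5. Groups did not overlap in any of these, and the differences of the genotype differences were -1.19 (SE 0.26), -1.26 (SE 0.39) and -0.79 (SE 0.25). Over the 8 vesicle arrays the 3 sets correlated with the lead set at r = 0.952, 0.933 and 0.812, values that share the arrays and so are only a description. In wild type the lead set was higher at E10.5 than at E10 by 2.01, and the other sets by 1.68, 1.88 and 0.61.

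Flot2 (chr11:78037931-78060434) had the largest difference between the genotype differences among all 26218 probe sets tested. Its lead probe set (1438164_x_at) read 8.08 and 8.89 in labelled-null against 6.52 and 7.40 in wild-type arrays at E10. At E10.5 it read 7.19 and 6.56 in labelled-null against 8.46 and 8.54 in wild-type arrays. The labelled-null arrays were the high ones at E10 and the low ones at E10.5, without overlap, although the 2 arrays of a group lay well apart in all groups but wild type at E10.5. The differences were 1.53 at E10 and -1.63 at E10.5 (SE 0.37 each), which gave -3.15 (SE 0.53).

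Probes of a set whose name ends in _x_at can match other sequences, so the other Flot2 set matters. That set, 1417544_a_at, read 7.77 and 7.71 in labelled-null against 7.45 and 7.21 in wild-type E10 arrays, and 7.28 and 7.26 against 7.69 and 7.75 at E10.5. It had the same order without overlap, at a smaller size: 0.41 at E10 and -0.45 at E10.5, a difference of -0.86 (SE 0.23). The sets correlated at r = 0.801 over the vesicle arrays. Wild-type levels were higher at E10.5 than at E10 by 1.54 in the lead set and by 0.39 in the other. With the Eif2s3y level as a covariate the lead value was 0.85.

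Lypd6b (chr2:49787340-49948849) has 1 probe set (1429274_at). It read 5.33 and 5.62 in labelled-null against 4.61 and 5.07 in wild-type E10 arrays, and 5.31 and 5.33 in labelled-null against 6.88 and 6.28 in wild-type E10.5 arrays. The 4 labelled-null arrays thus lay between 5.31 and 5.62, while the wild-type arrays were lowest at E10 and highest at E10.5. The differences were 0.64 at E10 and -1.26 at E10.5 (SE 0.25 each), and the second minus the first was -1.90 (SE 0.36). Wild type was higher at E10.5 than at E10 by 1.74.

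Akap6 (chr12:52698588-53155568) and Togaram1 (chr12:64965576-65022573) ran the other way, with labelled-null lower at E10 and higher at E10.5. The Akap6 lead probe set (1440859_at) read 5.97 and 5.78 in labelled-null against 6.51 and 6.32 in wild-type E10 arrays, and 8.08 and 8.43 against 7.49 and 7.50 at E10.5. Both genotypes had higher levels at E10.5 than at E10, by 2.38 in labelled-null and by 1.08 in wild-type arrays. The labelled-null E10.5 arrays, where Akap6 was highest, were also those with the highest red cell and neuronal markers, whose part in the value was not tested. The genotype differences were -0.54 at E10 and 0.76 at E10.5 (SE 0.18 each), which gave 1.30 (SE 0.26). A second Akap6 set, 1444357_at, was too dim for the vesicle filter, reading 4.18 and 4.56 in labelled-null against 4.55 and 4.70 in wild-type E10 arrays, and 4.47 and 5.07 against 4.52 and 4.40 at E10.5. Its groups overlapped at both stages.

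The Togaram1 lead probe set (1434843_at) read 6.56 and 6.59 in labelled-null against 7.60 and 7.28 in wild-type E10 arrays, and 6.64 and 6.62 against 6.42 and 6.33 at E10.5. As in Plekha4, the wild-type E10 pair stood apart, here as the high one, and the labelled-null arrays of both stages lay between 6.56 and 6.64. The differences were -0.87 at E10 and 0.26 at E10.5 (SE 0.17 each), which gave 1.12 (SE 0.24). The other kept set, 1441095_at, did not share this pattern, with 5.53 and 5.16 in labelled-null against 5.32 and 4.99 in wild-type E10 arrays and 5.38 and 5.38 against 5.33 and 5.45 at E10.5. Its groups overlapped at both stages and it gave -0.20 (SE 0.28), the opposite sign to the lead set, with r = -0.494 between the sets over the vesicle arrays. The third set, 1458067_at, was dim, at 3.19 to 3.50 in all 8 arrays.

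**Figure D2:**
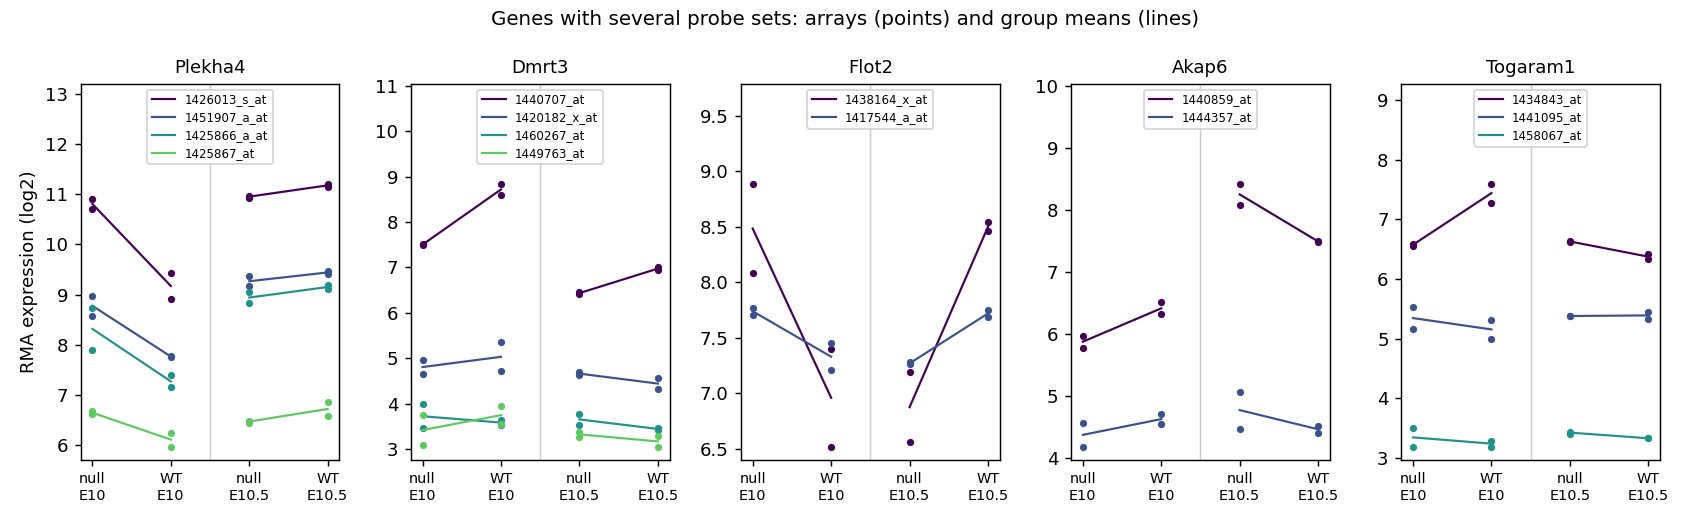
RMA log2 levels of each probe set of the 5 genes with more than 1, with points for vesicle arrays and lines joining the labelled-null mean (left) to the wild-type mean (right) within a stage. All 4 Plekha4 sets and both Flot2 sets slope the same way within a stage, while the lead Togaram1 set and 1441095_at differ.

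Eci3 (chr13:34946614-34963988) had overlapping groups at E10 and its large labelled-null difference at E10.5. Its 1 probe set (1451588_at) read 6.35 and 6.23 in labelled-null against 6.42 and 6.09 in wild-type E10 arrays, which overlap. At E10.5 it read 6.63 and 6.75 in labelled-null against 8.33 and 8.35 in wild-type arrays. The wild-type E10.5 pair was high and the other 6 arrays lay between 6.09 and 6.75. The differences were 0.04 at E10 and -1.65 at E10.5 (SE 0.17 each), the second minus the first being -1.69 (SE 0.25), and wild type was higher at E10.5 than at E10 by 2.09, against 0.40 in labelled-null arrays.

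Dmrt3 (chr19:25610246-25623921) and Myo1h (chr5:114289253-114364576) had lower levels at E10.5 than at E10 in both genotypes. The Dmrt3 lead probe set (1440707_at) read 7.51 and 7.50 in labelled-null against 8.59 and 8.85 in wild-type E10 arrays, and 6.46 and 6.41 against 6.95 and 7.0 at E10.5. Labelled-null arrays were the lower ones at both stages without overlap, by 1.22 at E10 and 0.54 at E10.5 (SE 0.16 each), so that the direction did not turn and the sizes differed by 0.68 (SE 0.23). The stage difference, E10.5 minus E10, was -1.07 in labelled-null and -1.75 in wild-type arrays. A second set, 1420182_x_at, read 4.96 and 4.65 in labelled-null against 5.35 and 4.71 in wild-type E10 arrays, and 4.69 and 4.63 against 4.32 and 4.56 at E10.5. At E10.5 its labelled-null arrays were thus the higher ones, against the lead set, but by 0.22 with an SE of 0.24. At E10 its groups overlapped, and its name, like that of the Flot2 lead set, ends in _x_at. The remaining 2 Dmrt3 sets, 1460267_at and 1449763_at, did not pass the filter and lay between 3.05 and 3.99.

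Myo1h (1450543_at, its 1 probe set) read 8.14 and 8.27 in labelled-null against 8.43 and 8.69 in wild-type E10 arrays, and 6.94 and 6.29 against 6.46 and 6.20 at E10.5. Its labelled-null difference was -0.36 at E10, without overlap, and 0.29 at E10.5 (SE 0.24 each), where the groups overlapped. Leaving out labelled-null E10.5 replicate 1 turned the E10.5 difference to -0.04, and leaving out replicate 2 gave 0.61. The difference between the genotype differences was 0.64 (SE 0.34), with 0.32 and 0.97 in those 2 cases. The stage difference was the larger one, at -1.59 in labelled-null and -2.23 in wild-type arrays, and no E10.5 array reached any E10 array.

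**Figure D3:**
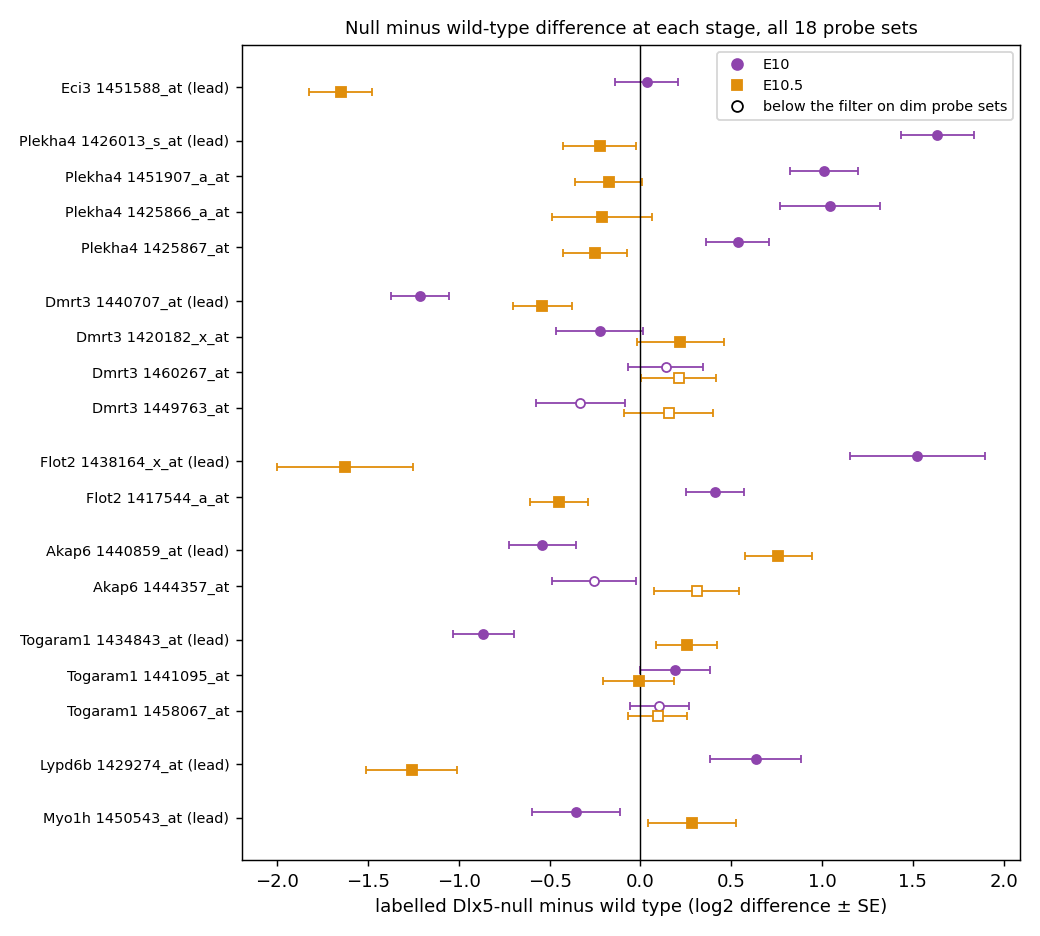
Labelled-null minus wild-type difference in log2 at E10 and at E10.5 for all 18 probe sets of the 8 genes, with bars for the SE of the fit and open symbols for sets below the filter. In the lead sets Plekha4, Flot2 and Lypd6b lie above 0 at E10 and below 0 at E10.5, Akap6 and Togaram1 lie on the other sides, Dmrt3 is below 0 at both stages, and Eci3 is near 0 at E10 and -1.65 at E10.5.

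With only the replicate 2 arrays at E10, the difference of the genotype differences was -3.12 for Flot2, -1.81 for Lypd6b, -1.72 for Plekha4, -1.79 for Eci3, 1.30 for Akap6, 0.95 for Togaram1, 0.81 for Dmrt3 and 0.71 for Myo1h. In that fit the lone E10 arrays are assumed to vary like the other groups. All 8 signs were those of the full set. Leaving out the E10 arrays of low Xist did not make the genotypes alike in the Y-linked gene Eif2s3y. It read 6.17 in labelled-null and 3.96 in wild-type E10 replicate 2, and 4.82 and 5.04 in labelled-null against 3.21 and 3.45 in wild-type E10.5 arrays. With the Eif2s3y level as a covariate the differences of the genotype differences were -2.91 for Flot2, -1.76 for Lypd6b, -1.73 for Plekha4, -1.77 for Eci3, 1.24 for Akap6, 1.05 for Togaram1, 0.74 for Dmrt3 and 0.72 for Myo1h. With that covariate the E10.5 difference of Plekha4 turned to 0.039 and that of Togaram1 was 0.098.

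The 8 lead profiles were also set against each other and against all other genes over the 8 vesicle arrays by Pearson's r, as a description of arrays that share 4 groups. Plekha4 and Togaram1 mirrored each other at r = -0.986, both with the wild-type E10 pair apart, and Eci3 and Lypd6b correlated at r = 0.866, both highest in the wild-type E10.5 pair. Dmrt3 and Myo1h, both lower at E10.5, correlated at r = 0.85, and Akap6 ran against Myo1h at r = -0.863. The genes most like each member were Gm11772 (r = 0.990) and Pacsin3 (0.987) for Plekha4, Trim41 (0.954) and Sap130 (0.947) for Flot2, and Tnfsf11 (0.986) and Efnb2 (0.947) for Lypd6b. For Akap6 they were Pf4, a platelet chemokine (r = 0.973), and Vmac (0.970), for Togaram1 Siah2 (0.961) and Car2 (0.957), and for Eci3 Itgb6 (0.984) and Nle1 (0.983). For Dmrt3 they were Fbxo32 (r = 0.994) and Acsl5 (0.986), and for Myo1h Cse1l (0.990) and Usp15 (0.990).

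Genes related to each member by family or function were examined next, from 8 lists holding 114 measured genes, of which 102 passed the filter. Limma called 0 of the 102 for the labelled-null difference at E10 (0.0% of all 26218 probe sets called), with 2 of the 102 at an unadjusted p under 0.05 (3.28% of all). It called 0 at E10.5 (0.00381% of all), with 4 unadjusted (2.82% of all). For the difference between stages it called 0 (0.0% of all), with 2 unadjusted (2.06% of all). For labelled-null E10.5 against E10 it called 0 (0.0763% of all), with 17 unadjusted (13.5% of all). For wild-type E10.5 against E10, where 1.46% of all probe sets were called, 2 of the 102 were called higher (0.744% of all) and 1 lower (0.721%), and 33 had an unadjusted p under 0.05 (19.5% of all). Acadl, a fatty acid dehydrogenase, rose by 1.18 (SE 0.20, limma adjusted p = 0.0416). Lynx1, a Ly6-family modulator of nicotinic receptors, rose by 1.10 (SE 0.18, limma adjusted p = 0.0401), and Akap9, a kinase anchor of the Golgi and centrosome, fell by 1.11 (SE 0.18, limma adjusted p = 0.0380). None of the 3 was called when wild-type E10 replicate 1, either wild-type E10.5 array or either labelled-null E10.5 array was left out, nor with Eif2s3y as a covariate. The fit with only the replicate 2 arrays at E10 leaves 1 array in each E10 group, so its count of called related genes is not given.

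Fatty acid oxidation genes, the list of Eci3, lay higher at E10.5 in wild type for 20 of 22 tested, with a median difference of 0.46 against 0.0 over all probe sets. In labelled-null arrays 17 of the 22 lay higher at E10.5, with a median of 0.31 against 0.01 over all. The Ly6-family and nicotinic receptor list had a wild-type median of 0.59 over 16 genes. Among the named oxidation genes the replicate 1 array was the lower one at E10 in both genotypes. In wild type Eci1 read 6.98 against 8.21 in replicate 2, and Acadvl 8.68 against 9.31. In labelled-null arrays Eci1 read 7.42 against 8.57, and Acadvl 8.87 against 9.75. For the difference of the genotype differences 19 of the 22 lay below 0, with a median of -0.13 against -0.02 over all. Eci1, an isomerase of the same family in mitochondria, read 7.42 and 8.57 in labelled-null against 6.98 and 8.21 in wild-type E10 arrays, and 8.83 and 8.54 against 8.81 and 8.81 at E10.5. It overlapped at E10 and had a difference of the genotype differences of -0.53 (SE 0.65). The flotillin and caveolin list had a median of -0.08 over 9 tested genes, and Flot1, the partner of Flot2 in flotillin assemblies, read 8.28 and 9.24 in labelled-null against 8.23 and 8.83 in wild-type E10 arrays and 9.29 and 9.23 against 9.29 and 9.32 at E10.5, a difference of -0.28 (SE 0.46).

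Among Ly6-family and nicotinic receptor genes, Lypd6, a regulator of Wnt signalling and nicotinic receptors, had a like order to Lypd6b at E10.5. It read 4.58 and 5.35 in labelled-null against 4.38 and 5.32 in wild-type E10 arrays, and 5.36 and 5.37 against 6.64 and 6.67 at E10.5. The groups overlapped at E10 and stood apart at E10.5, with labelled-null lower by 1.29 (SE 0.34), and the difference of the genotype differences was -1.41 (SE 0.48). Chrna3, a nicotinic receptor subunit, read 5.06 and 4.93 in labelled-null against 5.40 and 5.11 in wild-type E10 arrays, and 5.45 and 5.38 against 4.96 and 4.79 at E10.5, a difference of 0.80 (SE 0.24). None of these values passed the limma test over all probe sets.

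In the other lists the medians of the difference of the genotype differences were -0.06 over 12 genes of the PLEKHA family and dishevelled turnover, -0.07 over 16 kinase anchoring and protein kinase A genes, -0.15 over 19 cilium genes, -0.24 over 5 class I myosins and 0.07 over 3 DM-domain genes. None of their genes was called for this difference. The cilium gene Mks1 read 10.49 and 10.64 in labelled-null against 9.87 and 10.34 in wild-type E10 arrays and 10.55 and 10.48 against 10.65 and 10.64 at E10.5, an opposite order at the stages and the reverse of that in Togaram1.

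The choice of genes did not use the 2B1 cells, so these were tested. The Dlx5 probe set itself read 5.14 and 4.80 in Dlx5-transfected and 4.66 and 4.79 in empty-vector cells, a small separation, so that a gain of Dlx5 is hardly seen on these arrays and the test rests on the labels. Of 13 member probe sets that passed the filter there, limma called 0 between Dlx5-transfected and empty-vector cells at an adjusted p under 0.05, and 0 had an unadjusted p under 0.05. Over all 26198 probe sets it called 0 (0.0%), with 2909 at an unadjusted p under 0.05 (11.1%). The 13 differences ran from -0.38 to 0.44, with a median of 0.05 against 0.04 over all probe sets, and 7 were above 0. Groups did not overlap in 7 of the 13, with 4 higher and 3 lower with Dlx5, where 46.6% of all probe sets did not overlap (27.5% higher and 19.1% lower). With 2 cultures a group the 95% intervals were wide, and taken over the 13 they reached from -0.84 to 1.12.

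Togaram1 (1434843_at) had the largest 2B1 difference, with 6.03 and 6.37 in Dlx5-transfected against 5.58 and 5.95 in empty-vector cells. That is 0.44 (SE 0.20, 95% interval -0.05 to 0.92, limma adjusted p = 0.456), higher in both Dlx5 cultures. Myo1h read 6.51 and 6.46 in Dlx5-transfected against 5.58 and 6.53 in empty-vector cells, a difference of 0.43 (SE 0.29, 95% interval -0.26 to 1.12) in which 1 empty-vector culture lay low and the groups overlapped. Flot2 read 9.65 and 9.62 in Dlx5-transfected against 9.01 and 9.47 in empty-vector cells in 1438164_x_at, a difference of 0.40 (SE 0.20, 95% interval -0.07 to 0.86). Its other set, 1417544_a_at, read 8.29 and 8.29 against 8.19 and 8.30, a difference of 0.05 (SE 0.16).

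The Akap6 and Plekha4 sets did not share a direction in 2B1 cells. Akap6 read 7.41 and 7.33 in Dlx5-transfected against 6.94 and 7.18 in empty-vector cells in 1440859_at (difference 0.31, SE 0.17), but 4.20 and 4.47 against 4.90 and 4.53 in 1444357_at (difference -0.38, SE 0.20). Plekha4 read 6.64 and 6.27 in Dlx5-transfected against 6.27 and 6.15 in empty-vector cells in its lead set (difference 0.25, SE 0.19), but 7.57 and 7.57 against 7.91 and 7.87 in 1451907_a_at (difference -0.32, SE 0.16). Its other 2 sets had differences of -0.13 and -0.12. Dmrt3 read 4.96 and 4.45 in Dlx5-transfected against 5.13 and 4.96 in empty-vector cells, a difference of -0.34 (SE 0.21). Eci3 read 4.15 and 4.60 in Dlx5-transfected against 4.50 and 4.39 in empty-vector cells, a difference of -0.07 (SE 0.20). Lypd6b, at 3.62 and 3.38 with Dlx5 and 3.35 and 3.50 with empty vector, was too dim to be tested.

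**Figure D4:**
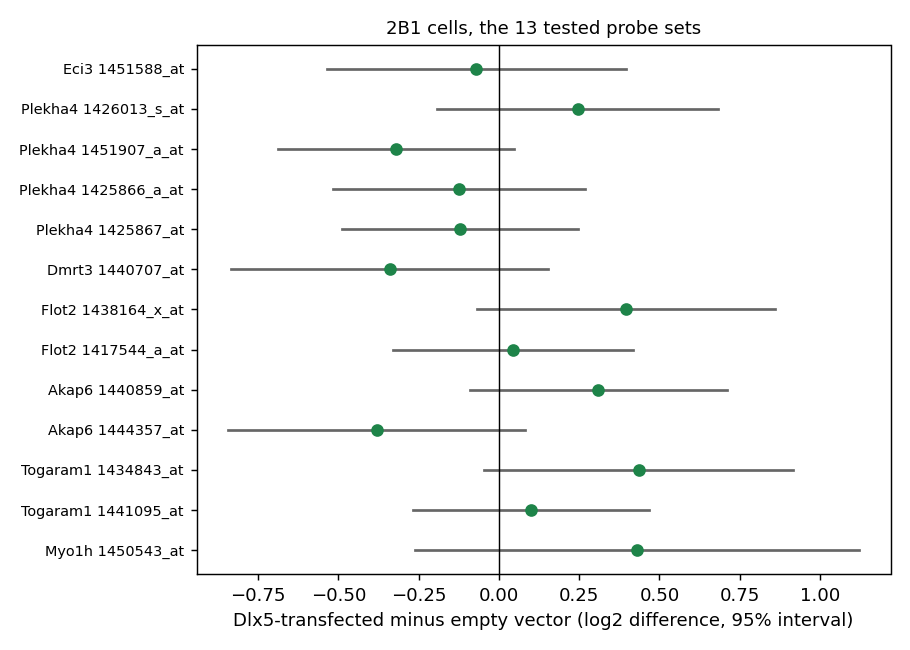
Dlx5-transfected minus empty-vector difference in log2 in 2B1 cells for the 13 tested probe sets, with bars for the 95% interval of the limma fit (2 cultures each). Every interval crosses 0, and the differences run from -0.38 to 0.44.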

How the data were processed

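RNA of 12 samples was measured on Affymetrix mouse arrays, 2 in each of 6 groups taken from the sample titles. For 45101 probe sets, log2 values were deposited, and the submitters' processing notes name RMA and Affymetrix Expression Console as tools. RMA subtracts background, equalises the distributions of arrays and condenses the probes of each set to 1 value, so dim sets show compressed differences. Vesicle arrays had means of 6.10 to 6.11 and 2B1 arrays of 5.76 to 5.82, so they appear to have been normalized apart and no level was set across them. How far a signal stood over background, and batches of scanning, are not known from the values used. The number of arrays, 2 a group, limits the precision, and no pair of arrays shared more than 2.78% of values.

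Of the probe sets, 34958 carried 1 gene, 932 several and 9211 none; the last 2 kinds were left out. Symbols were updated through RefSeq (GRCm38.p6), 34754 by gene identifier and 5 by accession, and 199 were kept as listed. The lowest 25% by mean were left out, leaving 26218 probe sets in vesicles and 26198 in 2B1 cells. Contrasts of group means were fitted with limma 3.58.1 in R 4.3.3 (lmFit, eBayes; 8 vesicle arrays or 4 cell arrays, no covariate), with Benjamini-Hochberg adjustment over all tested probe sets and a threshold of 0.05, and the scripts were tested on simulated data. The labels give independent cultures for 2B1 cells. They do not say whether vesicle pools came from separate litters, so the spread there may be partly technical.

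The genes, the related and marker lists and the tests were chosen with earlier results of these data known. The named genes were the 8, Dlx5, up to 4 genes of each related list (called genes first, then by size of the difference between stages), and the genes with the highest Pearson r to each lead set. Alternatives were no filter, the brightest probe set per gene, a replicate block, quantile normalization, Eif2s3y as a covariate, leaving out arrays and, for the 8 genes, their other probe sets.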

Additional observations from a re-analysis of the deposited data

Results flagged for a closer look

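Every labelled-null array lay on one side of every wild-type array at E10 and on the other side at E10.5 in the probe sets given here. The values are the labelled-null difference at E10.5 minus that at E10, in log2. For Plekha4 they were -1.86 (1426013_s_at), -1.19 (1451907_a_at), -1.26 (1425866_a_at) and -0.79 (1425867_at). For Flot2 they were -3.15 (1438164_x_at) and -0.86 (1417544_a_at), for Akap6 1.30 (1440859_at), for Togaram1 1.12 (1434843_at) and for Lypd6b -1.90 (1429274_at). Limma called none of the tested probe sets for this difference. That is not read as a test of these genes, which were chosen on the vesicle values. Among the related genes named, Chrna3 had 0.80, Akap13 -0.66, Mks1 -0.59 and Dmrtb1 0.38, and none of these 4 passed limma's test of that difference over all probe sets. These orders arise in 3.27% of all tested probe sets, and the genes were chosen for them.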

How the results depend on the processing

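With 2 arrays a group, no contrast had calls under all alternatives. Many of the alternative values were fixed in advance. The replicate block leaves each difference as it is, and so does leaving out an array that the contrast does not use. Over the 8 genes, 498 of 510 alternative values, these included, kept the sign of the value reported and 12 changed it. The 12 were the Eci3 E10 difference without wild-type E10 replicate 2 (-0.13), without labelled-null E10 replicate 1 (-0.025) and with Eif2s3y as a covariate (-0.059), the Plekha4 E10.5 difference with that covariate (0.039), the Plekha4 labelled-null stage difference with it (-0.087) and in 1425867_at (-0.18), the Dmrt3 E10.5 difference in 1420182_x_at (0.22), the Myo1h E10.5 difference without labelled-null E10.5 replicate 1 (-0.04, and 0.61 without replicate 2), and 4 Togaram1 values in 1441095_at: 0.19 at E10, -0.01 at E10.5, -0.20 for their difference and 0.24 for the wild-type stages. Leaving out 1 array at a time, the difference between stages ran from -3.59 to -2.71 for Flot2, -2.11 to -1.61 for Plekha4, -2.20 to -1.60 for Lypd6b, -1.85 to -1.52 for Eci3, 1.13 to 1.48 for Akap6, 0.96 to 1.28 for Togaram1, 0.55 to 0.81 for Dmrt3 and 0.32 to 0.97 for Myo1h, lowest without labelled-null E10.5 replicate 1.

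Counts of probe sets called depended on the setting. Without 1 array, limma called 0 to 2 at E10 (0 with all arrays), 0 to 4 at E10.5 (1), 0 to 1213 for wild-type stages (384), 0 to 135 for labelled-null stages (20) and 0 to 13 in 2B1 cells (0). With only replicate 2 at E10 it called 4 at E10, 38 at E10.5, 1934 for wild-type and 262 for labelled-null stages. With the brightest set per gene it called 205 for wild-type and 3 for labelled-null stages, with quantile normalization 1125 and 87, and with Eif2s3y as a covariate 3 for wild-type stages and 0 at E10.5. Of the 102 related genes, 0 to 11 were called for wild-type stages without 1 array (3 with all arrays), 9 with quantile normalization and 32 with the replicate block. The difference between stages had 0 calls under all of these. The replicate block gave 11 calls at E10.5, 5469 for wild-type and 2475 for labelled-null stages and 347 in 2B1 cells, and the crossed pairing of the 2B1 cultures, added after the data were seen, gave 0. Same-numbered arrays deviated together at E10 (r = 0.676) but hardly at E10.5 (0.049) or in 2B1 cells (-0.121). The numbers may thus pair the samples at E10, which the labels do not state, and show no pairing at E10.5 or in 2B1 cells. Of the 111 alternative 2B1 values of the 8 genes, 0 passed the threshold, and the smallest adjusted p was 0.0652. The cause of these shifts was not tested.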

Other observations

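The genes beside the 8 on the chromosomes were looked at after the data were seen, taking the nearest protein-coding gene with a tested probe set on each side (16 genes, GRCm38.p6). Their labelled-null difference at E10.5 minus that at E10 ran from -1.41 to 0.45, with a median size of 0.20. Some lay far off, as Egln3 did, 1023412 bases after Akap6. Lypd6 (chr2:50066400-50193569), which starts 117550 bases after Lypd6b ends, had -1.41 (SE 0.48). The next largest was Smarca2, 981151 bases after Dmrt3, at -0.62 (SE 0.50). Its labelled-null E10.5 arrays lay apart, at 5.94 and 4.86. Eci2 (chr13:34977748-35027115), an isomerase gene 13759 bases after Eci3, lay between 12.78 and 13.04 in all 8 vesicle arrays. It had a difference between stages of -0.07 (SE 0.21), where Eci3 had -1.69. No test was made, because the neighbours were looked at for genes already chosen on these arrays.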
